A study of Caenorhabditis elegans with 3 samples.

Results

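The 10 genes described here encode channels of the transient receptor potential (TRP) family in Caenorhabditis elegans. They were found by name, as the rows of the deposited RNA-seq table whose WormBase gene identifier carries the symbol ocr-1, ocr-2, ocr-3, ocr-4, osm-9, trp-1, trp-2, trp-4, trpa-1 or gtl-1. Each had 1 row, so 10 loci of the 40669 in the table are the subject, and all 10 were among the 15628 loci that carry a gene identifier and whose FPKM averaged 1 or more across the genotypes (FPKM counts fragments per kilobase of transcript after scaling for library size, so it is a level per length). The genes were chosen by family and by the FPKM of these genotypes, above all the values of ocr-1, so the values below are a description.

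Poly(A) RNA of embryos was measured in 3 genotypes. The 8rex deletion (strain TY5827) lacks 8 rex sites on X, elements to which the dosage compensation complex is recruited, through the alleles rex-8(y737), rex-14(y738), rex-33(y743), rex-32(y572), rex-35(y740), rex-43(y741), rex-47(y671) and rex-48(y742). The DCC mutant carries sdc-2(y93) (strain TY0810) and was in addition fed bacteria that express sdc-2 RNAi; SDC-2 is the protein that brings the dosage compensation complex (DCC) to X. The third genotype was wild type (strain N2). HT115 bacteria were the food throughout, and those given to the 8rex deletion and to wild type held the empty vector pL4440. The labels list 5 replicates of the 8rex deletion, 3 of the DCC mutant and 5 of wild type, and the table holds 1 combined FPKM per genotype. No value below therefore has a standard deviation, no difference has a replicate check of its own, and the depth of the libraries is unknown. Older embryos, mostly at the 3-fold stage, made up 60% of the 8rex deletion replicates, 33.3% of the DCC mutant replicates and 60% of the wild-type replicates. The others were mixed-stage embryos, so the DCC mutant also differs from wild type in stage. For each genotype the labels' protocols give 68 to 70 hours for young adults, and 7 to 8 hours at 20 °C for the older embryos to develop. The targeted gene sdc-2 stood at 16.01 FPKM in the 8rex deletion, 10.98 FPKM in the DCC mutant and 18.04 FPKM in wild type, with p = 0.505 in the authors' deposited table for the DCC mutant.

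TRP channels are cation channels of the plasma membrane and of organelles, opened by chemical, mechanical, thermal or lipid signals. In C. elegans the vanilloid-type (TRPV) subunits OSM-9 and OCR-2 work together in the cilia of sensory neurons for odour, osmotic and touch responses, and OCR-1, OCR-3 and OCR-4 are their relatives, each found in few cell types. TRP-1 and TRP-2 are canonical (TRPC) channels, TRP-4 is a mechanically gated TRPN channel of dopaminergic and other neurons, TRPA-1 is an ankyrin-type channel that responds to cold and is known to affect lifespan, and GTL-1 is a melastatin-type (TRPM) channel of the intestine. Most of these channels are used by few cells of the worm. In whole embryos, fewer cells of a type and less RNA per cell cannot be told apart.

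**Figure D1:**
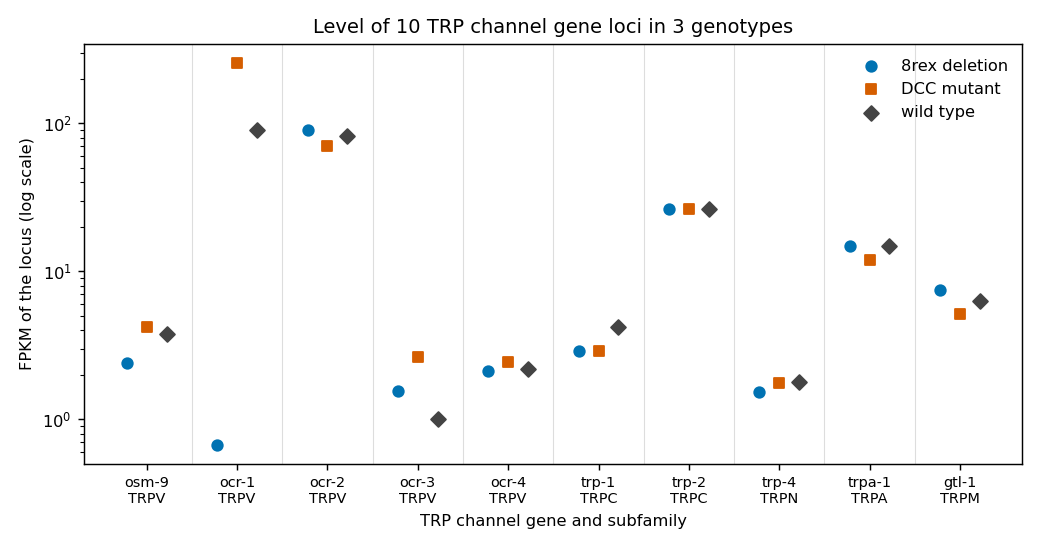
FPKM (log axis) of the 10 TRP channel gene loci in the 8rex deletion (circles), the DCC mutant (squares) and wild type (diamonds), 1 combined value per genotype and no error bars. The ocr-1 locus spans 0.676 to 255 FPKM, while the 3 symbols of every other locus lie within 2.62-fold of each other.

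The levels of the TRP channel loci spanned a wide range. In wild type the order of FPKM was ocr-1, ocr-2, trp-2, trpa-1, gtl-1, trp-1, osm-9, ocr-4, trp-4 and ocr-3. Only ocr-1, ocr-2, trp-2, trpa-1 and gtl-1 averaged 5 FPKM or more. Without replicate values, neighbours in this order that lie close together, such as ocr-1 and ocr-2 or trp-1 and osm-9 in wild type, cannot be set against a spread. The median of the 10 loci was 2.65 FPKM in the 8rex deletion, 4.68 FPKM in the DCC mutant and 5.26 FPKM in wild type. Their FPKM summed to 149.7 in the 8rex deletion, 383 in the DCC mutant and 232 in wild type, and ocr-1 made up 0.452% of that sum in the 8rex deletion, 66.7% in the DCC mutant and 38.8% in wild type. Without ocr-1 the sums were 149.0 FPKM in the 8rex deletion, 128 FPKM in the DCC mutant and 142 FPKM in wild type.

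Measured against all loci, ocr-1 was the 1 TRP channel locus past a 2-fold difference in each mutant. In the 8rex deletion, 1 of the 10 loci differed from wild type by at least 1 on the log2(FPKM + 1) scale, beside 16.4% of all 15628 loci. In the DCC mutant it was again 1 of 10, beside 20.6% of all loci. These differences helped to choose the list, so nothing is read from the counts. The median difference of the 10 loci was -0.01 for the 8rex deletion and 0.00 for the DCC mutant, and that of all loci was 0.00 in both. In the 8rex deletion 4 of the 10 loci lay above 0 and 6 below, and in the DCC mutant 5 lay above and 5 below. Within 0.5 of wild type on this scale were 9 of the 10 loci in the 8rex deletion and 8 of the 10 in the DCC mutant. Both comparisons share the wild-type value. On this scale the change of low loci is understated.

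**Figure D2:**
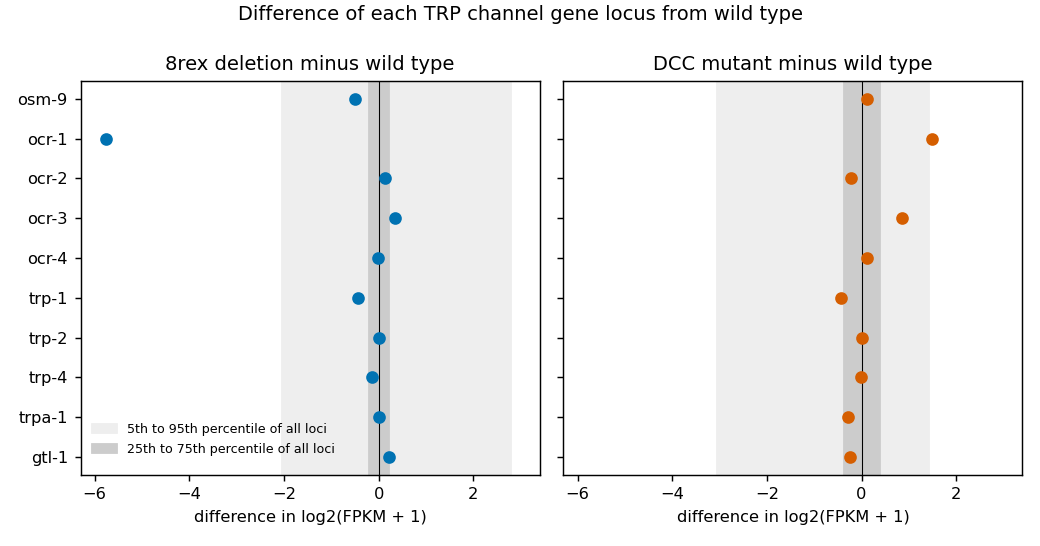
Difference of each TRP channel gene locus from wild type in log2(FPKM + 1), for the 8rex deletion (left) and the DCC mutant (right); dark and light bands span the 25th to 75th and the 5th to 95th percentiles of all 15628 loci. The ocr-1 point lies outside the light band on the low side at -5.76 in the 8rex deletion and on the high side at 1.49 in the DCC mutant.

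The authors' own test covered only the 5 higher loci. In the authors' deposited table ocr-1, ocr-2, trp-2, trpa-1 and gtl-1 have a p below 1 in both comparisons, and the 5 others have a p of 1, which was taken as not tested. Of the 5 tested, ocr-1 in the 8rex deletion had a p under 0.05 in the authors' deposited table, beside 0.459% of 9378 tested loci. No TRP channel locus had one in the authors' deposited table for the DCC mutant, beside 2.07% of 9509 tested loci. The q-value of all 5 loci was 0.999938 in both comparisons of the authors' deposited table, and no locus of the whole table had a q under 0.05.

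The gene ocr-1 (WBGene00003838, protein-coding, V, 10764366 to 10768590 in ce11, + strand) encodes a TRPV subunit known from sensory neurons that detect odours. Its locus stood at 0.676 FPKM in the 8rex deletion, 255 FPKM in the DCC mutant and 89.9 FPKM in wild type. The 8rex deletion was thus the lowest and the DCC mutant the highest, 377-fold apart, with wild type between them. Relative to wild type the log2(FPKM + 1) difference was -5.76 in the 8rex deletion, a level 133-fold lower in FPKM, and 1.49 in the DCC mutant, 2.84-fold higher. The authors' deposited table gives a log2 fold change of -7.05 with p = 0.0156 for the 8rex deletion and 1.504 with p = 0.513 for the DCC mutant. Among all 15628 loci the 8rex deletion difference of ocr-1 was the 123rd lowest, and its DCC mutant difference the 743rd highest. Of these 15628 loci, 7.91% stood below ocr-1 in the 8rex deletion, 96.5% in the DCC mutant and 88.0% in wild type.

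Loci with a low 8rex deletion value like that of ocr-1 were also counted over the table. The limits of 50 FPKM and 1 FPKM were set after the ocr-1 values were seen, so that ocr-1 meets them by their choice. Among loci that hold exactly 1 gene, a protein-coding one, 1943 stood at 50 FPKM or more in both the DCC mutant and wild type, and 1 of them, ocr-1 itself, stood below 1 FPKM in the 8rex deletion (0.0515%). The same search for a locus low in the DCC mutant alone found 0 of 1987, and for one low in wild type alone 2 of 1906 (0.105%), both listed at 0. Over all loci with a gene identifier, merged loci included, the numbers were 13 of 2949 in the 8rex deletion (9 listed at 0), 39 of 3029 in the DCC mutant (39 listed at 0) and 17 of 2902 in wild type (17 listed at 0). A listed 0 can stand for an estimate that failed, and whether a value near 0 such as 0.676 FPKM can be one was not tested. Nor was it tested how far the authors' estimation shaped the high ocr-1 values, 255 FPKM in the DCC mutant and 89.9 FPKM in wild type.

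**Figure D3:**
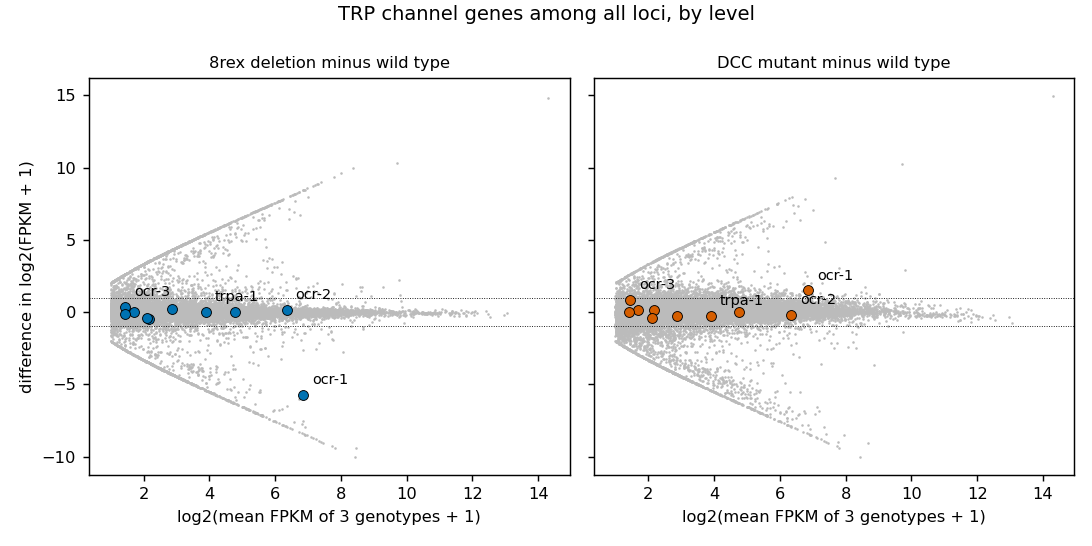
Difference from wild type in log2(FPKM + 1) against log2 of the mean FPKM + 1 over the genotypes, for all 15628 loci (grey) and the 10 TRP channel loci (coloured); dotted lines mark 2-fold. The ocr-1 point stands well below the cloud of loci of its level in the 8rex deletion, on the left, and at the upper side of the cloud in the DCC mutant, on the right, while the other 9 lie inside the dotted lines.

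The protein-coding genes next to ocr-1 differed less between genotypes. The next gene to the right, D1054.1, lies on the opposite strand and overlaps the last 128 bp of ocr-1, all of it exonic in both. It stood at 14.4 FPKM in the 8rex deletion, 12.2 FPKM in the DCC mutant and 13.2 FPKM in wild type. The proteasome subunit gene pas-2, which starts 6002 bp to the right of the start of ocr-1 on the same strand, stood at 62.9 FPKM in the 8rex deletion, 90.1 FPKM in the DCC mutant and 58.5 FPKM in wild type. All 3 genotypes were close together at D1054.1, and at pas-2 the DCC mutant was the highest. D1054.3, the next gene on that strand, stood at 59.9 FPKM in the 8rex deletion, 106 FPKM in the DCC mutant and 55.3 FPKM in wild type, a log2(FPKM + 1) difference of 0.93 for the DCC mutant. D1054.17, a snoRNA gene within D1054.3 on the same strand, stood at 122 FPKM in the 8rex deletion, 32.7 FPKM in the DCC mutant and 48.1 FPKM in wild type. It was the 1 neighbour past 2-fold in the 8rex deletion, at 1.33 in log2(FPKM + 1), and higher there than in wild type where ocr-1 was lower (p = 0.571 in the authors' deposited table). To the left, F28H7.8 stood at 3.52 FPKM in the 8rex deletion, 1.33 FPKM in the DCC mutant and 2.54 FPKM in wild type, and the chemoreceptor gene sre-6 stood at or below 0.271 FPKM in each genotype. A non-coding gene on the opposite strand inside ocr-1, F28H7.12, was listed at 0 in each. The deposited start of the ocr-1 row lies 13309 bp left of the annotated gene and is the same for 8 loci, those of D1054.1, pas-2, F28H7.8 and sre-6 among them, so the table gives no start of the ocr-1 transcript itself. This is common, since 20199 of the 40669 loci (49.7%) share their deposited start with another. That of ocr-4 is the same for 20 loci.

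**Figure D4:**
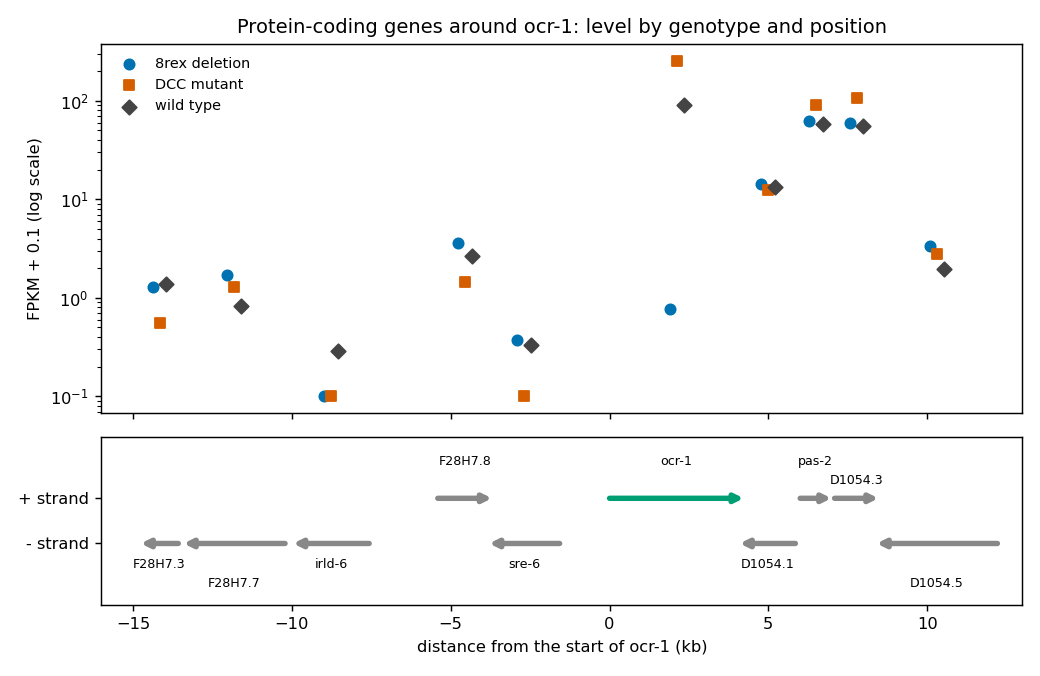
Protein-coding genes around ocr-1 by distance from its start (kb). The upper plot gives FPKM + 0.1 (log axis) in the 8rex deletion (circles), the DCC mutant (squares) and wild type (diamonds), and the arrows below give each gene's extent and strand; the 3 symbols are far apart at ocr-1, close together at D1054.1, and highest in the DCC mutant at pas-2 and D1054.3.

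Among loci of a similar level, even the nearest lay far from the pattern of ocr-1. The measure was the distance between pairs of log2(FPKM + 1) differences, 8rex deletion and DCC mutant from wild type, over 1553 loci with 1 protein-coding gene and a mean FPKM within 2-fold of that of ocr-1. The nearest, ZC13.1 on X, was 3.12 away, with 11.1 FPKM in the 8rex deletion, 89.7 FPKM in the DCC mutant and 114 FPKM in wild type. The second, her-1 on V, whose product promotes male development, was 3.28 away, with 6.92 FPKM in the 8rex deletion, 284 FPKM in the DCC mutant and 48.5 FPKM in wild type. B0250.18, spp-14 and F23A7.8 followed at distances of 3.90, 4.81 and 4.89. Of these 5 loci, her-1, B0250.18 and F23A7.8 were lowest in the 8rex deletion and highest in the DCC mutant, an order that the measure favours. With 3 genotypes and 1 value each, such likeness rests on very few points.

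The gene ocr-2 (WBGene00003839, IV, 8213788 to 8220087, - strand) encodes the TRPV subunit that partners OSM-9 in sensory cilia. The authors' locus joins it with nhr-66, a nuclear hormone receptor gene to its right on the same strand, so its value covers both genes and the share of ocr-2 is not known. This locus stood at 90.0 FPKM in the 8rex deletion, 70.2 FPKM in the DCC mutant and 81.5 FPKM in wild type. The DCC mutant was the lowest and the 8rex deletion the highest, a span of 1.28-fold. The log2(FPKM + 1) difference from wild type was 0.14 for the 8rex deletion and -0.21 for the DCC mutant, and the authors' deposited table gives p = 0.705 and p = 0.634 for these.

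The founding member osm-9 (WBGene00003889, IV, 3551090 to 3557431, - strand), required for the osmotic, odour and touch responses of several sensory neurons, has a locus of its own. It stood at 2.41 FPKM in the 8rex deletion, 4.21 FPKM in the DCC mutant and 3.79 FPKM in wild type. The 8rex deletion was the lowest, as at ocr-1, but by 1.57-fold. The differences from wild type in log2(FPKM + 1) were -0.49 for the 8rex deletion and 0.12 for the DCC mutant.

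The gene ocr-4 (WBGene00003841, IV, 7329611 to 7332795, - strand), a TRPV gene of a few head sensory neurons, shares its locus with the piRNA genes 21ur-14935 and 21ur-15313, which overlap its end by 14 and 8 bp. It stood at 2.13 FPKM in the 8rex deletion, 2.42 FPKM in the DCC mutant and 2.17 FPKM in wild type, a span of 1.14-fold.

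The gene ocr-3 (WBGene00003840, X, 15168724 to 15173636, + strand), another TRPV subunit gene, is the only X-linked one of the 10. It stood at 1.55 FPKM in the 8rex deletion, 2.63 FPKM in the DCC mutant and 1.01 FPKM in wild type. The DCC mutant was the highest and wild type the lowest, 2.62-fold apart. The differences from wild type in log2(FPKM + 1) were 0.34 for the 8rex deletion and 0.86 for the DCC mutant. The 2939 X-linked loci had a median of 0.00 for the 8rex deletion and 0.46 for the DCC mutant. Its neighbour to the right on the same strand, ucr-2.2, stood at 69.0 FPKM in the 8rex deletion, 117 FPKM in the DCC mutant and 71.0 FPKM in wild type. At both genes the DCC mutant was the highest. Without a pseudocount, the ocr-3 difference in the DCC mutant was 1.39, past 2-fold, but at 1 to 3 FPKM its locus is low in every genotype and the authors did not test it.

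Of the TRPC genes, trp-1 (WBGene00006614, III, 8535131 to 8542748, + strand), which encodes a neuronal channel, stood at 2.89 FPKM in the 8rex deletion, 2.88 FPKM in the DCC mutant and 4.24 FPKM in wild type. Both mutants were below wild type, by -0.43 on the log2(FPKM + 1) scale in each, and both differences are taken from the same wild-type value. The gene trp-2 (WBGene00006615, III, 991881 to 1001931, + strand) shares its locus with tbc-10, a TBC-domain protein gene to its left. This joint locus stood at 26.2 FPKM in the 8rex deletion, 26.4 FPKM in the DCC mutant and 26.2 FPKM in wild type, the narrowest span of the 10 loci at 1.01-fold (p = 0.993 and p = 0.986 in the authors' deposited table). How much of it is trp-2 is not known.

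The TRPN gene trp-4 (WBGene00006616, I, 13899085 to 13914008, + strand) stood at 1.53 FPKM in the 8rex deletion, 1.76 FPKM in the DCC mutant and 1.78 FPKM in wild type, a span of 1.16-fold at a low level. Of the dopaminergic neurons in which TRP-4 acts, all 7 listed genes were measured above 0 in each genotype. The dopamine synthesis gene cat-2 stood at 2.26 FPKM in the 8rex deletion, 2.36 FPKM in the DCC mutant and 2.30 FPKM in wild type, and the dopamine transporter gene dat-1 at 2.31 FPKM in the 8rex deletion, 2.45 FPKM in the DCC mutant and 2.69 FPKM in wild type. These 2 low levels lie near those of trp-4, while the 7 genes ranged from 2.30 to 126 FPKM in wild type. All 7 genes of that list lay below wild type in the 8rex deletion, with a median difference of -0.16 in log2(FPKM + 1), and 5 of 7 did so in the DCC mutant, with a median of -0.10. The 1 gene of the 7 past 2-fold in the DCC mutant was cat-4, beside 20.6% of all loci. It stood at 3.48 FPKM there and 8.32 FPKM in wild type, a difference of -1.06. Of all loci, 47.6% lay above wild type for the 8rex deletion and 48% for the DCC mutant. The authors tested 5 of the 7, cat-2 and dat-1 not among them, and none of the 5 had a p under 0.05 in the authors' deposited table.

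The gene trpa-1 (WBGene00007801, IV, 11864526 to 11875733, + strand), whose channel responds to cold, stood at 14.9 FPKM in the 8rex deletion, 11.99 FPKM in the DCC mutant and 14.8 FPKM in wild type. The 8rex deletion and wild type lay together and the DCC mutant 0.28 lower in log2(FPKM + 1), with p = 0.982 and p = 0.541 in the authors' deposited table. The microRNA gene mir-124 lies in an intron of trpa-1 and was listed at 0 in each genotype, in libraries made from poly(A) RNA. The intestinal TRPM gene gtl-1 (WBGene00001795, IV, 11248884 to 11259535, - strand) stood at 7.44 FPKM in the 8rex deletion, 5.15 FPKM in the DCC mutant and 6.28 FPKM in wild type. The difference from wild type was 0.21 for the 8rex deletion and -0.24 for the DCC mutant in log2(FPKM + 1) (p = 0.577 and p = 0.606 in the authors' deposited table). The listed intestine genes measured at loci of their own had a median difference of 0.23 for the 8rex deletion and -0.30 for the DCC mutant over 7 genes, and their summed level was 608 FPKM in the 8rex deletion, 451 FPKM in the DCC mutant and 552 FPKM in wild type. Single genes of that list ranged from 2.39 to 305.6 FPKM in the 8rex deletion, 1.75 to 237 FPKM in the DCC mutant and 1.82 to 292 FPKM in wild type, with none at 0. Both gtl-1 and that sum were highest in the 8rex deletion and lowest in the DCC mutant, and the part of intestinal RNA in the gtl-1 values was not tested.

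Of 10 further TRP channel genes, 5 had a locus with no other coding gene and averaged 1 FPKM or more, and none of the 5 differed by 1 or more in log2(FPKM + 1) in either mutant, beside the 16.4% and 20.6% of all loci. The authors tested 4 of the 5, and none of the 4 had a p under 0.05 in the authors' deposited table. The fifth, trpl-5, stood at 2.70 FPKM in the 8rex deletion, 1.04 FPKM in the DCC mutant and 1.28 FPKM in wild type. Its 8rex deletion difference of 0.70 on the log2(FPKM + 1) scale was a log2 fold change of 1.08, past 2-fold, in the authors' deposited table. The TRPM gene gon-2, which acts with gtl-1 in the intestine and is needed for gonad development, stood at 35.5 FPKM in the 8rex deletion, 24.5 FPKM in the DCC mutant and 30.7 FPKM in wild type. Like gtl-1, it was highest in the 8rex deletion and lowest in the DCC mutant. The TRPM-type gene ced-11, which acts in dying cells, stood at 62.1 FPKM in the 8rex deletion, 58.0 FPKM in the DCC mutant and 40.6 FPKM in wild type. The TRP family gene trpl-2 stood at 4.90 FPKM in the 8rex deletion, 3.62 FPKM in the DCC mutant and 5.88 FPKM in wild type. The remaining listed genes gtl-2, spe-41, pkd-2 and lov-1, known from the excretory cell, sperm and male sensory neurons, had means under 1 FPKM, and trpa-2 shares its locus with another coding gene.

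The genes that work with these channels had medians near those of all loci. Of the list of sensory transduction genes around OSM-9 and OCR-2, 17 were measured at loci of their own, and the median difference was 0.01 for the 8rex deletion and 0.12 for the DCC mutant. None of the 17 differed by 1 or more in log2(FPKM + 1) in either, beside 16.4% of all loci for the 8rex deletion and 20.6% for the DCC mutant. None of the 10 tested had a p under 0.05 in the authors' deposited table, beside 0.459% and 2.07% of all tested loci, so nothing is read from that count. The lowest p among them in the DCC mutant belonged to fat-3, a desaturase gene needed to make the lipids that act on OSM-9 channels, at 31.3 FPKM in the 8rex deletion, 19.7 FPKM in the DCC mutant and 38.3 FPKM in wild type (p = 0.130 in the authors' deposited table). The arrestin gene arr-1, which is X-linked, stood at 47.8 FPKM in the 8rex deletion, 70.0 FPKM in the DCC mutant and 48.8 FPKM in wild type. Of calcium signalling genes, 14 were measured, with a median of 0.08 for the 8rex deletion and 0.04 for the DCC mutant, none past 2-fold and none with a p under 0.05 in the authors' deposited table. The transporter gene gem-1, found through its interaction with gon-2, stood at 11.01 FPKM in the 8rex deletion, 11.1 FPKM in the DCC mutant and 7.41 FPKM in wild type.

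**Figure D5:**
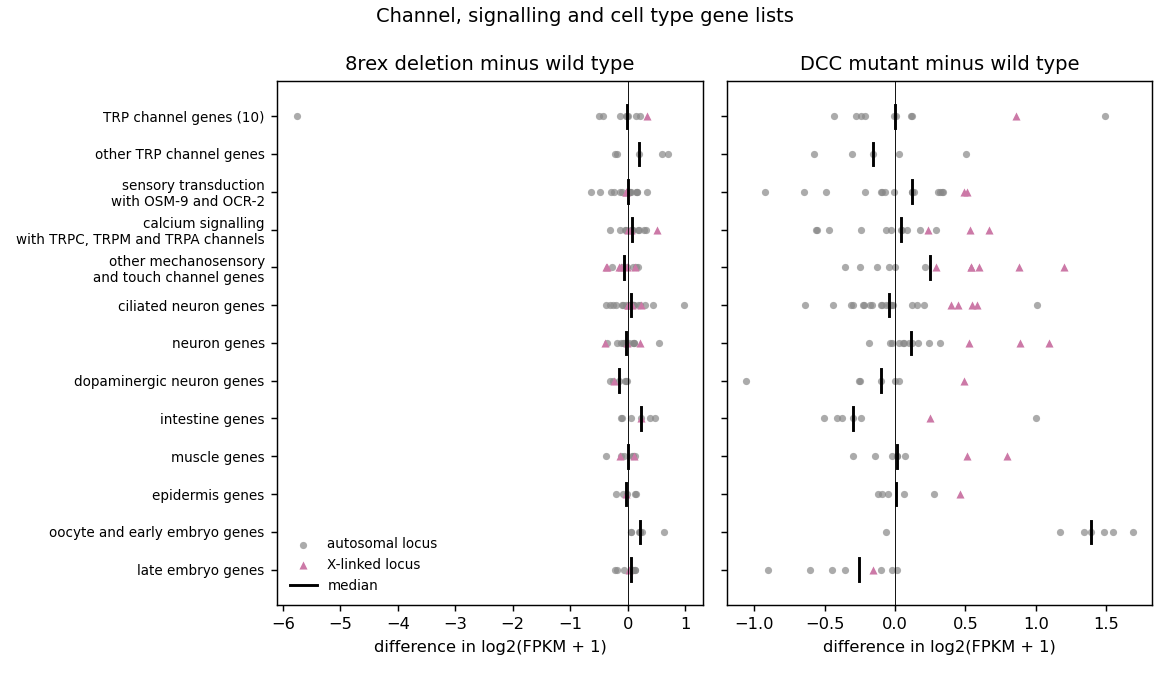
Difference from wild type in log2(FPKM + 1) for the 10 TRP channel loci and the members of 12 other lists with a locus of their own, in the 8rex deletion (left) and the DCC mutant (right, on a narrower axis); triangles are X-linked loci and bars are medians. In the left plot ocr-1 stands alone at -5.76, and in the right plot most triangles lie right of 0 and the early embryo genes have a median of 1.39.

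Other channels of touch and mechanical sensing lay near the medians of their chromosomes in the DCC mutant. Of 12 measured, the 6 X-linked ones lay above wild type in the DCC mutant, with a median of 0.57, and the 6 autosomal ones had a median of -0.09. Over all loci these medians were 0.46 on X, where 70.3% of loci lay above wild type, and -0.04 on the autosomes, where 42.8% did. In the 8rex deletion the medians were -0.13 on X and 0.04 on the autosomes. The X-linked channel gene tmc-1 stood at 11.1 FPKM in the 8rex deletion, 21.4 FPKM in the DCC mutant and 11.1 FPKM in wild type (p = 0.0486 in the authors' deposited table for the DCC mutant). Of the 6 genes of this list tested there, tmc-1 was the 1 with a p under 0.05, beside 2.07% of 9509 tested loci. The touch channel gene mec-4, also on X, stood at 1.87 FPKM in the 8rex deletion, 5.05 FPKM in the DCC mutant and 1.63 FPKM in wild type. Over all lists together, 23 of 24 X-linked genes and 40 of 102 autosomal genes lay above wild type in the DCC mutant, and 12 of 24 X-linked and 57 of 102 autosomal genes did so in the 8rex deletion. In the 8rex deletion 46% of all X-linked loci and 48% of all autosomal loci lay above wild type.

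Genes of ciliated neurons, the cells in which several of these channels act, were measured in every genotype. The 23 genes of ciliated neurons measured at loci of their own ranged from 3.85 to 103.7 FPKM in the 8rex deletion, 5.66 to 87.9 FPKM in the DCC mutant and 4.99 to 103 FPKM in wild type, with none at 0. Their summed level was 538 FPKM in the 8rex deletion, 514 FPKM in the DCC mutant and 502 FPKM in wild type, and their median difference was 0.06 for the 8rex deletion and -0.05 for the DCC mutant. The 14 general neuron genes summed to 843 FPKM in the 8rex deletion, 1027 FPKM in the DCC mutant and 874 FPKM in wild type. In the DCC mutant the 3 X-linked ones had a median difference of 0.89 and the 11 autosomal ones a median of 0.06. Of the 23 ciliated neuron genes, mks-5, which encodes a protein at the base of the cilium, lay near the 2-fold limit in both mutants. It stood at 55.2 FPKM in the 8rex deletion, 56.5 FPKM in the DCC mutant and 27.6 FPKM in wild type, a log2(FPKM + 1) difference of 0.98 for the 8rex deletion and 1.01 for the DCC mutant. The 2 mutants were thus nearly equal, and no other of the 23 reached 2-fold on that scale in either. Of all loci, 16.4% reached it for the 8rex deletion and 20.6% for the DCC mutant. The other 7 listed genes share their locus with another coding gene. Of those, klp-11, a kinesin gene of cilia whose locus also holds F20C5.5, stood at 116 FPKM in the 8rex deletion, 95.04 FPKM in the DCC mutant and 425 FPKM in wild type. Both mutants were lower there, by -1.86 for the 8rex deletion and -2.15 for the DCC mutant in log2(FPKM + 1), with p = 0.124 and p = 0.133 in the authors' deposited table. The 8 measured muscle genes had a median difference of 0.00 for the 8rex deletion and 0.02 for the DCC mutant, and the 6 epidermis genes one of -0.02 for the 8rex deletion and 0.01 for the DCC mutant.

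Embryo stage moved with the DCC mutant comparison. The 7 measured oocyte and early embryo genes summed to 374 FPKM in the 8rex deletion, 745 FPKM in the DCC mutant and 330.5 FPKM in wild type. Of the 7, 6 were at least 2-fold higher in the DCC mutant, beside 20.6% of all loci past 2-fold in either direction. Of these 6, 5 had a p under 0.05 in the authors' deposited table, beside 2.07% of 9509 tested loci. The other 5 of the 12 listed early genes share their loci and lay above wild type in the DCC mutant, each by less than 2-fold. They were mex-3, oma-1, oma-2, nos-2 and cey-2, at 0.57, 0.93, 0.73, 0.29 and 0.83. The 8 late embryo genes summed to 1786 FPKM in the 8rex deletion, 1470.2 FPKM in the DCC mutant and 1786 FPKM in wild type. Of the 8, 7 lay below wild type in the DCC mutant, where 48% of all loci lay above it. The other 4 late genes share their loci. Of these, sym-1, lpr-3 and mlt-11 lay above wild type in the DCC mutant, by 0.39, 0.69 and 0.12, and dpy-7 lay below, by -0.09. The part of stage in the ocr-1, ocr-3, trpa-1 and gtl-1 values of the DCC mutant was not tested. The 8rex deletion has the same number of replicates per stage as wild type. There the medians of these lists were 0.21 and 0.06, and none of their members passed 2-fold, beside 16.4% of all loci. All 7 measured early genes and 5 of the 8 late genes lay above wild type there, where 47.6% of all loci did. Of the early genes at shared loci, oma-1 and nos-2 lay below wild type in the 8rex deletion, by -0.31 and -0.02. The part of stage in the 8rex deletion values was not tested.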

How the data were processed

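Poly(A) RNA of embryos was sequenced from the 8rex deletion, the DCC mutant and wild type, 1 sample per genotype. Per the labels' protocols, older embryos developed for 7 to 8 hours at 20 °C. The submitters' processing notes name cutadapt 1.2.1, TopHat2 2.1.1, Cufflinks 2.2.1 and the build ce11. Their settings, the weighting of replicates and the use of strand were not given in the sources used here, so overlapping genes may share reads. The authors deposited FPKM with the replicates already combined, per the file headers. The deposited log2 fold change equals the log2 ratio of the FPKM of mutant and wild type within 5.2e-05 where both are above 0. The authors' p-value and q-value are printed as deposited, and their test is not named in the headers.

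Symbols, coordinates (1-based) and overlaps come from Ensembl release 115, whose assembly is the same (45923 of 46148 gene identifiers found). Differences are log2(FPKM + 1), mutant minus wild type, at loci whose mean reached 1 FPKM. No test over replicates was possible. The step was tested on simulated data, with changes placed only at loci of higher level in wild type. That check says nothing about loci at low FPKM or about the values of ocr-1. The members and lists were chosen with earlier results of these data known. The text names all members, the targeted gene, up to 3 genes per list among those with the lowest authors' p in a comparison, and the 5 loci most like ocr-1. The genes mec-4, cat-2, dat-1, trpl-5 and klp-11 were added after their values were seen. So were the intestine genes at loci of their own, the early and late embryo genes at shared loci, those of other lists named for their level and the neighbours of members. Alternatives were other pseudocounts, scalings, centrings and level filters, and single-gene loci. Python 3.11.15, numpy 2.4.6, pandas 2.3.3 and matplotlib 3.10.9 were used.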

Additional observations from a re-analysis of the deposited data

How the results depend on the processing

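No paired analysis was possible because the deposited table combines the replicates into 1 value per genotype; for the same reason no replicate could be left out. The difference of ocr-1 from wild type kept its sign and stayed past 2-fold under every alternative run, from -7.05 to -5.76 in the 8rex deletion and from 1.47 to 1.53 in the DCC mutant. The median over the TRP channel loci was -0.13 in the 8rex deletion over the 7 loci that hold no other gene, and -0.21 in the DCC mutant over the 5 loci whose mean reached 5 FPKM; fewer loci enter each. The count of loci past 2-fold in the DCC mutant was 2 with a pseudocount of 0.1 FPKM and 2 with none, since the ocr-3 difference was then 1.304 and 1.39; it was 0.40 when centred on the median of X-linked loci. Other pseudocounts, rescaling and centring gave 90 alternative values of single genes that could differ from the main ones. Of these, 77 moved by less than 0.1 on the log2 scale and 13 moved by more. The differences past 2-fold, those of ocr-1, kept their sign, which these settings could hardly change. Differences near 0 did change sign, those of trp-2 in both comparisons, trpa-1 in the 8rex deletion and trp-4 in the DCC mutant. Leaving out ocr-1, an alternative chosen after seeing the data, moved neither median by as much as 0.1. Depth is unknown, and 5 of the 10 loci have means under 5 FPKM, where small absolute differences give large ratios.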

Other observations

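Non-coding genes nested in the TRP channel genes were measured as loci of their own. In introns of trpa-1, C29E6.11 was listed at 0 in both mutants and stood at 25.5 FPKM in wild type, and C29E6.8 stood at 9.92 FPKM in the 8rex deletion and was listed at 0 in the DCC mutant and in wild type. In an intron of osm-9, B0212.7 was listed at 0 in the 8rex deletion and stood at 3.02 FPKM in the DCC mutant and 7.4999 FPKM in wild type. Also in an intron of trpa-1, C29E6.13 was listed at 0 in both mutants and stood at 2.84 FPKM in wild type. None of these intronic genes shares exonic bases with its host gene. They are 147 to 225 bp long, so their FPKM can rest on few fragments. On the opposite strand of trp-4, Y71A12B.29 overlaps its exons by 181 bp. It stood at 3.18 FPKM in the 8rex deletion and was listed at 0 in the DCC mutant and in wild type.

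In the list of intestine genes, the joint locus of elt-2 and elt-4 on X, which holds a GATA factor gene of the gut, stood at 202 FPKM in the 8rex deletion, 40.8 FPKM in the DCC mutant and 35.3 FPKM in wild type (p = 5e-05 for the 8rex deletion in the authors' deposited table). It was not counted among the genes at loci of their own. The X-linked muscle gene mup-2 stood at 384 FPKM in the 8rex deletion, 620.0 FPKM in the DCC mutant and 357 FPKM in wild type (p = 0.0289 in the authors' deposited table for the DCC mutant).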
